A study of Mus musculus with 4 samples.

Results

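Natural killer (NK) cells are innate lymphocytes that kill infected or transformed cells and release chemokines, small secreted proteins that attract other leukocytes. The accessible chromatin around 7 chemokine genes of cultured mouse NK cells is described here: Xcl1, Ccl1, Ccl5, Ccl9, Ccl6, Ccl3 and Ccl4. A region belonged to the protein-coding gene whose span in the RefSeq annotation GRCm38.p6 was closest to it, and where several spans were equally close, to the one whose end was nearer. By this rule 70 of the 91266 regions in the deposited list were assigned to the 7 genes. The data came from ATAC-seq, in which a transposase cuts and tags open chromatin. The 4 samples were splenic NK cells of wild-type C57BL/6 mice, cultured for 72 h, with 2 replicates at each of a high and a low dose. The agent was IL-15, an interleukin that NK cells need to survive. All samples received it, and the labels do not give the concentrations.

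Only positions could be compared. The deposited tables held 0 columns of values per sample, so accessibility in single samples, its spread between replicates and the depth behind a region are unknown, and no dose test could be made. What bears on the doses is the authors' deposited table of regions called up and their table of regions called down. Which dose was the reference is not given in the sources used here, so the lists keep their names. All 8 NK cell marker genes examined (Ncr1, Klrb1c, Klrk1, Eomes, Tbx21, Il2rb, Prf1 and Gzmb) had a region in the gene or within 1 kb of it, with 2 to 9 regions each. Of these 36 regions 6 were down (3 of 4 at Ncr1, 2 of 4 at Klrb1c and 1 of 9 at Il2rb) and 0 were up, whereas 1.40% of all regions were down and 4.21% were up. The difference was not tested. A region was also present at 4 of 5 T cell genes, 2 of 3 B cell genes, 2 of 5 macrophage, monocyte and granulocyte genes, 3 of 3 dendritic cell genes and 0 of 2 erythroid genes. Only Zbtb46, a dendritic cell gene, had listed regions among these, 2 of 14, both up. Among these genes Cd8a, Ms4a1, Adgre1, Ly6g, Elane, Hba-a1 and Gata1 had none. The presence of a region does not measure expression, and the part of other cells in the regions below was not tested.

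The 7 genes encode ligands for G protein-coupled receptors on other leukocytes. Ccl3, Ccl4 and Ccl5 (RANTES) encode inflammatory CC chemokines, and Ccl3 and Ccl5 act on CCR1. NK cells hold Ccl5 transcripts at rest and raise Ccl3 and Ccl4 on activation. Xcl1 (lymphotactin) attracts cross-presenting dendritic cells through XCR1. Ccl1 acts on CCR8, and Ccl6 and Ccl9 are rodent CC chemokines that act on CCR1. Of these genes, 5 lie side by side on chromosome 11 in the order Ccl5, Ccl9, Ccl6, Ccl3 and Ccl4. Ccl1 lies elsewhere on the same chromosome beside another group of Ccl genes, and Xcl1 lies alone on chromosome 1.

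The members differed in whether a region covered their start site. RefSeq start sites and sequences (GRCm38.p6) were matched for 5 of the 7 genes, all on the minus strand. The 250 bases before each start are shown, 5′ to 3′, because 3 of these starts lay in an accessible region and the others did not. Capitals mark letters that matched a searched motif. The stretches are chr1:164935523-164935772 for Xcl1, chr11:83649379-83649628 for Ccl3, chr11:83593088-83593337 for Ccl6, chr11:83578637-83578886 for Ccl9 and chr11:82179813-82180062 for Ccl1.
Xcl1: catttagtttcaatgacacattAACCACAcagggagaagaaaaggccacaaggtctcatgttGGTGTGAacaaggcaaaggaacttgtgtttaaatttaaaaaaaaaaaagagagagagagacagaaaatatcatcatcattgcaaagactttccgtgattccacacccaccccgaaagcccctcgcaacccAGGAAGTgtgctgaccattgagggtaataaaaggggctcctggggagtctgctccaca
Ccl3: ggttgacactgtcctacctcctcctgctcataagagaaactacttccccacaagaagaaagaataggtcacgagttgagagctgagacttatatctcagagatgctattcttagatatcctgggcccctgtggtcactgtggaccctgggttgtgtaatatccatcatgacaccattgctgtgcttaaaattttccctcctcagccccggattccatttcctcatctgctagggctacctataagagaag
Ccl6: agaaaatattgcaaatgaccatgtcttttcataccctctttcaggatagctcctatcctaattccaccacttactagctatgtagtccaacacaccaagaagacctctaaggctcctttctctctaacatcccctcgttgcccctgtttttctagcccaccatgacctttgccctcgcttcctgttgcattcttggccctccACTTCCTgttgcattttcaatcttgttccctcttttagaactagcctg
Ccl9: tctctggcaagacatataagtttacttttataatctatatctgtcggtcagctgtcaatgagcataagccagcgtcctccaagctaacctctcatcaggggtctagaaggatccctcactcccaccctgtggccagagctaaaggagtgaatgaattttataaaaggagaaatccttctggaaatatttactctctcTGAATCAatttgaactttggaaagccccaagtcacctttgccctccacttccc
Ccl1: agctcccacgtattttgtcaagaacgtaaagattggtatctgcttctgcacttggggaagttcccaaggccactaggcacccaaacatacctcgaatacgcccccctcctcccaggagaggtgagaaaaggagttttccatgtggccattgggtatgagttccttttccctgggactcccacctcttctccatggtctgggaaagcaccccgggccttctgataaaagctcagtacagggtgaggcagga

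At Xcl1 a region of 845 bp (chr1:164935379-164936223) ran from 701 bp before the start to 143 bp after it. At Ccl3 a region of 1092 bp (chr11:83648869-83649960) ran from 582 bp before the start to 509 bp after it. Both therefore contained the whole printed stretch. At Ccl6 the region was small, 168 bp (chr11:83593016-83593183), and reached only 96 bp before the start. The start of Ccl9 was not in a region: the nearest, of 601 bp (chr11:83578978-83579578), began 342 bp upstream and ended 942 bp upstream. The start of Ccl1 was not in one either, and its nearest region, of 434 bp (chr11:82177838-82178271), lay inside the gene, 1541 bp after the start. None of these 5 regions was in the up or the down list. Over all 32851 start windows in the RefSeq table, from 250 bases before to 50 bases after a start, 41.6% overlapped a region by at least 1 bp and 0.539% overlapped a listed one. For the members the counts were 3 of 5 and 0 of 5.

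Short sequence motifs were searched on both strands of the 250 bases. The T-box letters TCACACC matched once in Xcl1, from 188 to 182 bases before the start, and are held by 3.33% of all 32851 windows. The RUNX letters TGTGGTT matched in Xcl1 from 228 to 222 bases before the start, against 4.40% of windows. The AP-1 letters TGANTCA matched in Ccl9 from 53 to 47 bases before the start, against 6.75% of windows. The STAT5 letters TTCNNNGAA (7.02% of windows), the ETS letters CCGGAAG (6.91%) and an NF-kB pattern of GGG, 3 bases of any kind and TCCC (4.77%) matched none of the 5. Another ETS pattern, AGGAAGT, which was chosen after the sequences had been seen, matched in Xcl1 (58 to 52 bases before the start) and in Ccl6 (48 to 42), against 7.69% of windows. The ETS patterns share letters, but no matches in the members overlapped. None of the motifs matched in Ccl1 or Ccl3. These are matches of letters only, and binding was not measured.

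The base composition of the stretches was similar in 4 of the 5 genes, with a GC content of 43.6% in Ccl9, 44.0% in Xcl1, 45.2% in Ccl6 and 46.8% in Ccl3. Ccl1 had 52.8%, close to the median of 52.4% over all windows (interquartile range 45.2 to 61.2%). In local alignments of the 10 pairs, the highest score was that of the neighbours Ccl6 and Ccl9, which shared 16 of 17 aligned bases. That stretch lay from 18 to 2 bases before the start of Ccl9 and from 59 to 43 bases before that of Ccl6, so that the annotated starts were offset against it.

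**Figure D1:**
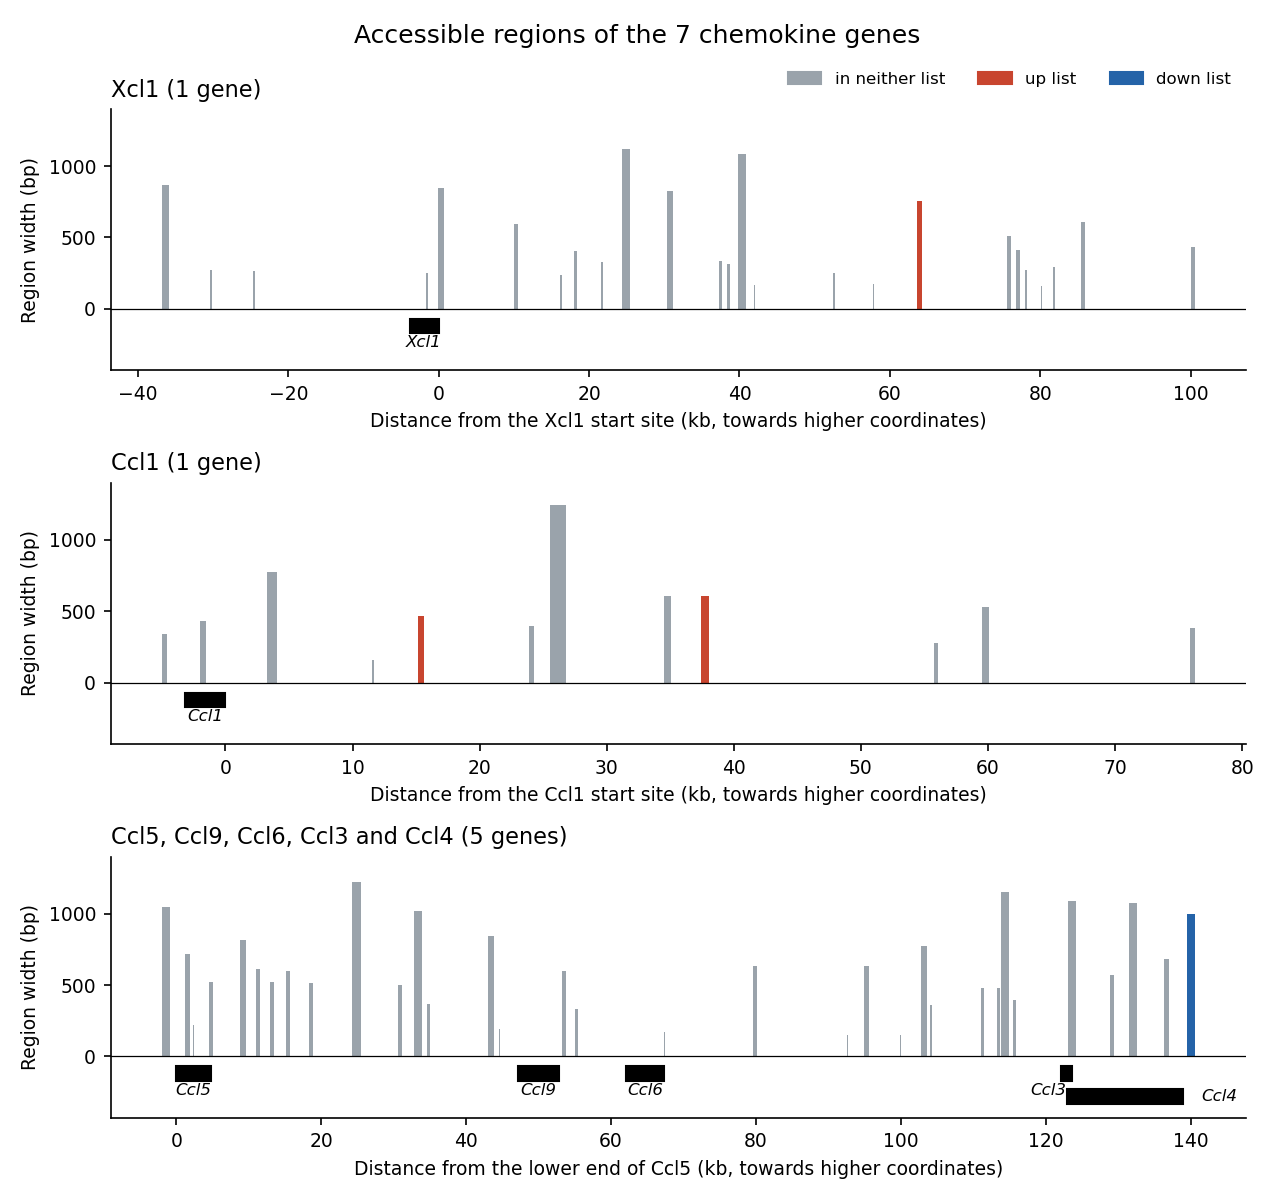
Maps of the 70 regions around Xcl1, Ccl1 and the Ccl5 to Ccl4 cluster. The horizontal axis is distance in kb from a start site or gene end, and each bar is one region, drawn to scale in length and with its width in bp as height; black boxes are RefSeq gene spans. The up regions lie 15.1 and 37.4 kb upstream of Ccl1 and 63.6 kb upstream of Xcl1, and the down region is the last one of the cluster, beside Ccl4.

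In the authors' deposited tables, 3 of the 70 regions were up and 1 was down. Up regions were thus 4.29% of the members' regions (95% Wilson interval 1.47 to 11.9%), and 4.21% of all 91266 regions were up. The single down region was 1.43% (0.253 to 7.66%), beside 1.40% of all regions. Counted together, 4 of 70 regions were listed (5.71%, 2.24 to 13.8%), beside 5.61% of all regions. By this assignment rule the members' shares were at the background, and the intervals, which cover counting error only and take neighbouring regions as independent, are wide. The listed share moved with the rule. It was 3 of 24 regions (12.5%) with genes of any biotype as the nearest gene, 1 of 28 (3.57%) within 10 kb of a member and 2 of 58 (3.45%) without Ccl1. Among regions of at least 400 bp it was 4 of 43 (9.30%), beside 7.39% of all regions of that width. All these values lie within the interval given above, but they come from subsets of the same 70 regions. Lying within it therefore does not show whether the share depends on the rule, which was not tested. The 3 up regions belonged to Xcl1 and Ccl1, and the down region to Ccl4. Ccl3, Ccl5, Ccl6 and Ccl9 had 29 regions among them in neither list. Of the 7 genes, 3 had a listed region (42.9%), beside 3298 of the 16387 genes with any region (20.1%). The members had a median of 9 regions per gene, and all 21900 protein-coding genes, including those without a region, a median of 2. A gene with more regions has more chances to hold a listed one, so these shares of genes are not like for like.

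**Figure D2:**
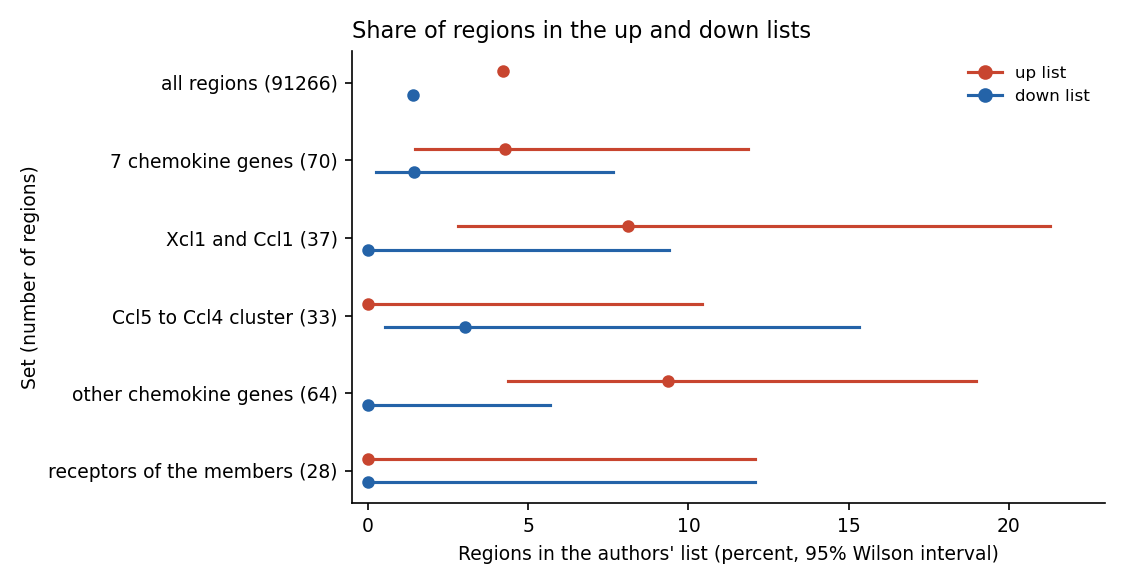
Percentage of regions in the authors' up list and down list for all regions, the 7 chemokine genes, their 3 loci in 2 sets, the other chemokine genes and the receptors. Points are shares and bars 95% Wilson intervals, with the number of regions in parentheses; the points of the 7 genes, 4.29% up and 1.43% down, sit at those of all regions.

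Xcl1, the ligand for cross-presenting dendritic cells, had the most regions of the 7 genes, 25, of which 1 was up and 24 were unlisted. Of the 21900 protein-coding genes, 97.9% had fewer. The gene is 3879 bp long (chromosome 1, 164931644 to 164935522), and the nearest protein-coding genes were 107 kb away (Dpt) and 202 kb away (Tbx19), so that a long stretch of chromosome fell to it by the assignment rule. The regions extended over 137 kb, with 20 upstream of the gene, 3 downstream, 1 inside it and 1 over its start. Their widths ran from 157 to 1120 bp, with a median of 333 bp. The widest was chr1:164959853-164960972, 24.3 kb upstream, and the farthest was chr1:165035617-165036046, 100.1 kb upstream.

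The up region of Xcl1 was chr1:164999087-164999842, 756 bp wide and 63.6 kb upstream of the start. It lay within the span of the long noncoding RNA gene Gm51669. It was wider than 91.7% of all up regions. Its neighbours, 5.67 kb below and 11.2 kb above, were narrower at 173 and 511 bp, and neither was listed. The next listed regions were 722 kb below, near Ccdc181, and 323 kb above, near Gpr161. Both were up, with 56 and 29 unlisted regions in between. The region at the start of Xcl1 was thus unlisted, and the listed one stood by itself.

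Ccl1, the CCR8 ligand, had 12 regions, of which 2 were up and 10 unlisted. The gene spans 3147 bp (chromosome 11, 82176666 to 82179812), and 10 of the 12 regions lay upstream of it, 1 inside and 1 downstream. Widths spanned 160 to 1248 bp around a median of 452 bp. The widest region, chr11:82205329-82206576, lay 25.5 kb upstream and was unlisted. The farthest was 75.9 kb upstream. On the upstream side the next protein-coding gene, Tmem132e, was 209 kb away and had 1 region. On the other side Ccl8 was 59.9 kb away and was the nearest gene to 0 regions.

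The first up region of Ccl1 was chr11:82194939-82195407, 469 bp wide and 15.1 kb upstream of the start. The second was chr11:82217231-82217834, 604 bp wide and 37.4 kb upstream. They were 21.8 kb apart with 3 unlisted regions between them, the widest region of Ccl1 among these. Neither overlapped an annotated gene of any kind. Below the first, the next listed region was also up and belonged to Ccl2, which encodes a monocyte attractant. It lay 173 kb away across 6 unlisted regions. Above the second, the next listed region was 821 kb away. The region nearest the start of Ccl1, which is the only one inside the gene, was not listed.

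The Ccl5 to Ccl4 cluster held 33 regions within 142 kb (chromosome 11, 83523849 to 83666276), and no region of any other protein-coding gene lay between them. Of these, 0 were up, a share whose 95% Wilson interval reached 10.4%, and 1 was down (3.03%, 0.537 to 15.3%). The absence of an up region therefore could not be told from the 4.21% of all regions at this number. In Xcl1 and Ccl1 together, 3 of 37 regions were up (8.11%, 2.80 to 21.3%) and 0 were down (upper bound 9.41%). The intervals of the up shares overlapped, and the difference between these sets was not tested.

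Ccl5 had 10 regions, all unlisted, and the gene spans 4741 bp (chromosome 11, 83525778 to 83530518). Of the 10, 3 were in the gene or over its end, 4 within 10 kb outside it and 3 beyond that. One of 525 bp, chr11:83530286-83530810, covered the end of the gene with the higher coordinate. Widths spanned 224 to 1224 bp, and their median of 604 bp was above that of all regions, 400 bp. The widest was also the farthest, chr11:83550043-83551266, at 19.5 kb. On the other side the gene Heatr9 was 3.28 kb away, and neither of its 2 regions was listed.

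Ccl9 and Ccl6 are neighbours and had 7 and 3 regions, none of them listed. Of the 7 regions of Ccl9 (chromosome 11, 83572917 to 83578636), 5 were downstream and 2 upstream, and 0 overlapped the gene. The widest, chr11:83558600-83559619, measured 1020 bp and lay 13.3 kb from the gene, and the farthest was at 16.0 kb. Ccl6 (chromosome 11, 83587886 to 83593087) had the fewest regions of the 7 genes and the narrowest. They measured 168 bp over the start, 632 bp at 12.2 kb upstream (chr11:83605301-83605932) and 150 bp at 25.2 kb upstream. The last equals the smallest width in the whole list of regions.

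Ccl3, which encodes an inflammatory chemokine also called macrophage inflammatory protein 1-alpha, had 9 regions, all unlisted. The gene is the shortest of the 7 at 1536 bp (chromosome 11, 83647843 to 83649378). Apart from the region over the start, all 8 others were downstream, between 6.17 and 26.5 kb from the gene. This side was set by the assignment rule. The annotated span of Ccl4 covers the start of Ccl3 and the stretch upstream of it, so any region wholly upstream of Ccl3 went to Ccl4. The widest was chr11:83639589-83640737, of 1149 bp at 7.11 kb, and a region of 478 bp ended 119 bp before it. That was the smallest gap in the cluster. The region over the start also lay within the annotated span of Ccl4 and went to Ccl3 because it overlapped an end of that gene.

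Ccl4, the partner of Ccl3 in many activation responses, had 4 regions, and the highest of these was the down region of the cluster. The annotated span of Ccl4 is 16060 bp (chromosome 11, 83648624 to 83664683) and overlaps that of Ccl3, and 3 of the 4 regions lay inside it. This span is the longest of the 7 genes, at 16060 bp beside 1536 to 5720 bp for the others, and the positions of these 3 regions as inside the gene rest on it. They measured 571 bp (chr11:83654600-83655170), 1078 bp (chr11:83657250-83658327) and 685 bp (chr11:83662106-83662790) and were unlisted. The down region was chr11:83665278-83666276, 999 bp wide, starting 595 bp beyond the higher end of the gene. It was wider than 93.6% of all down regions and overlapped no annotated gene. The unlisted region before it was 2.49 kb away. The next region on the other side was 62.4 kb away, near Wfdc18, whereas the longest gap within the cluster was 12.4 kb. The next listed regions were up regions, 626 kb below (near Slfn8) and 389 kb above (near Dusp14), with 61 and 12 unlisted regions between. Wfdc17, the next protein-coding gene at 39.4 kb, was the nearest gene to 0 regions.

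**Figure D3:**
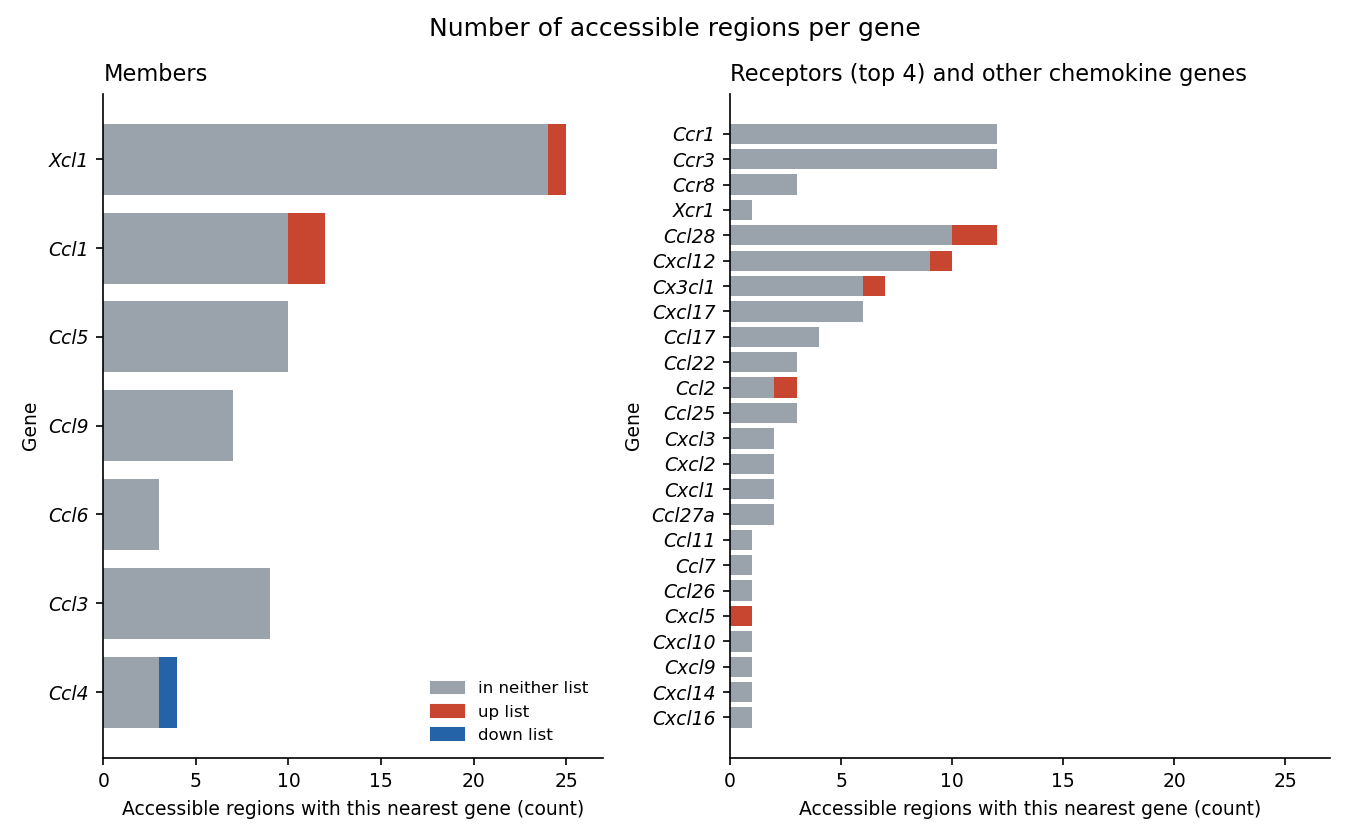
Number of accessible regions per gene, coloured by list, for the 7 members (left) and for 4 receptors and the 20 other chemokine genes with a region (right). Xcl1 has 25 regions with 1 up, Ccl1 has 12 with 2 up, and Ccl4 has 4 with 1 down, whereas none of the regions of these receptors is listed.

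Within the 3 loci the median gap between neighbouring regions was smaller than over all chromosomes, though inside the interquartile range of all gaps. Gaps were taken from the first to the last region of a locus, so the gaps flanking it are left out. The median gap between neighbours was 2.37 kb in the Ccl5 to Ccl4 cluster, 4.12 kb around Xcl1 and 4.82 kb around Ccl1, beside 6.91 kb over all chromosomes (interquartile range 2.31 to 17.8 kb). Regions covered 14.4% of the stretch of the cluster, 8.58% of that of Xcl1 and 7.67% of that of Ccl1. A member's region had a median of 16 other regions with midpoints within 50 kb of its own, and all regions had a median of 8. The median was 13.5 for regions of the 4 receptor genes described below and 9.5 for those of the other chemokine genes. Among the members it was lowest for Ccl1, at 9, and highest for Ccl9, at 20. Regions of one locus share most of these neighbours, so the numbers are a description of 3 loci.

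Most regions of the members lay outside the genes. Only 11 of 70 (15.7%) were inside a member or over its end, beside 61.1% of all regions and their nearest genes. For the 4 receptor genes described below this share was 10.7%, and 57.1% of their regions lay 10 to 50 kb away. For the other chemokine genes the values were 35.9% and 15.6%. Apart from Ccl4 the members are 1536 to 5720 bp long, and gene length was not taken into account. The 11 include the 3 regions inside the long annotated span of Ccl4. Within 10 kb outside lay 15 (21.4%, beside 13.6%), from 10 to 50 kb away 31 (44.3%, beside 14.4%) and farther than that 13 (18.6%, beside 11.0%). The last group belonged to Xcl1, with 10, and Ccl1, with 3. When noncoding genes and pseudogenes were allowed as the nearest gene, 24 regions stayed with the 7 genes, 37 went to 6 long noncoding RNA genes and 9 to 2 pseudogenes. Gm51669 took 10 regions of Xcl1, the up region among them. Gm32650, whose span includes that of Ccl5, took 7 of the regions of Ccl5.

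Widths differed between the members. The median over the 70 regions was 506 bp (interquartile range 318 to 746 bp), and over all regions it was 400 bp (252 to 653 bp). The cluster had a median of 599 bp and Xcl1 with Ccl1 one of 404 bp. By gene the median was lowest for Ccl6, 168 bp over 3 regions, and highest for Ccl4, 842 bp over 4 regions. Of the 70 regions, 9 (12.9%) were at least 1000 bp wide, a bound chosen after the widths were seen, beside 9.21% of all regions. They were 2 each of Xcl1, Ccl5 and Ccl3 and 1 each of Ccl1, Ccl9 and Ccl4, and none was listed. Of all 8402 regions of that width, 1.63% were listed. The 4 listed regions measured 469, 604 and 756 bp (up) and 999 bp (down). The median of all up regions was 453 bp and that of all down regions 537 bp, and the region of 469 bp was wider than 53.4% of up regions.

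**Figure D4:**
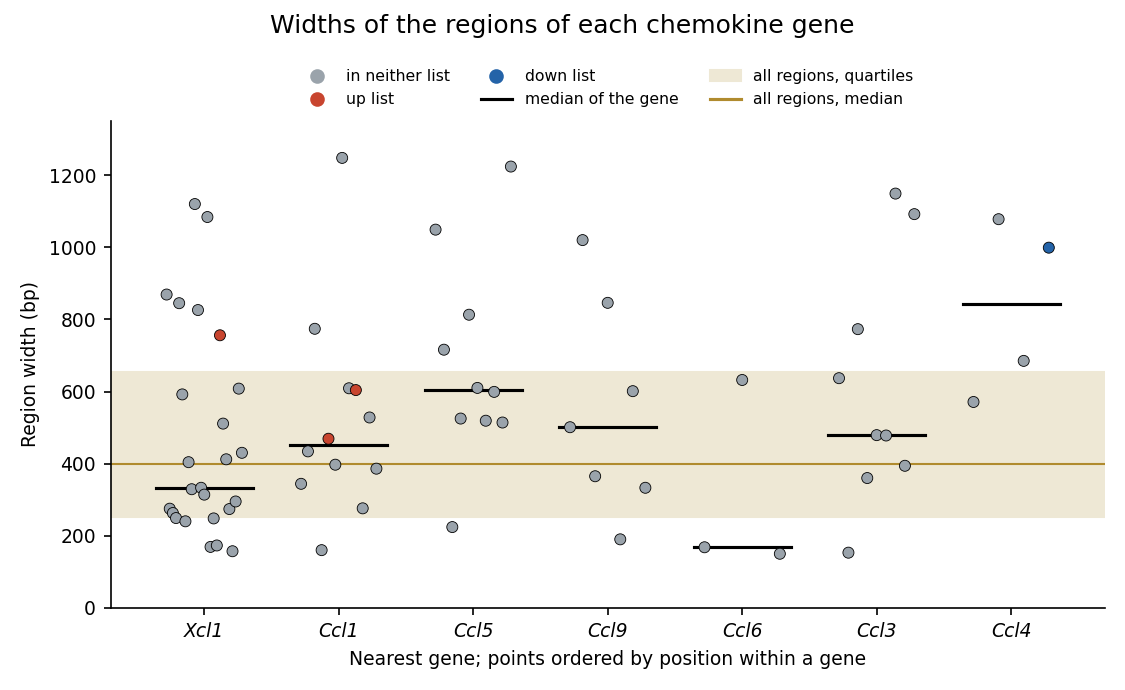
Width in bp of each of the 70 regions by gene, with points in order of position and coloured by list. The black line is the gene's median, and the shaded band and line are the quartiles and the median (400 bp) of all regions. The 4 listed regions lie between 469 and 999 bp.

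The other genes of the chemokine system were read for comparison. Of 31 other chemokine genes, 30 were found in the RefSeq table by symbol and 20 were the nearest gene to a region, with 64 regions in all. Among these 6 were up (9.38%, 95% Wilson interval 4.37 to 19.0%) and 0 were down (upper bound 5.66%). Of all regions, 4.21% were up and 1.40% were down. The intervals take neighbouring regions as independent, although 2 of the 6 up regions belonged to the same gene, Ccl28, so their bounds do not serve as a test. The difference from all regions was not tested. Ccl28, which encodes a mucosal chemokine, had 2 of 12 regions up, at chr13:119653031-119653587 in the gene and at chr13:119656951-119657527, 2.59 kb from it. Cx3cl1 (fractalkine) had 1 of 7 regions up, in the gene. Cxcl12, a homing chemokine of stromal cells, had 1 of 10 up, 1.25 kb from the gene. Ccl2 had 1 of 3 up at 13.8 kb, and the only region of the neutrophil attractant gene Cxcl5 was up, 16.8 kb away. Cxcl9 and Cxcl10, which encode interferon-induced ligands of a receptor on NK cells, had 1 unlisted region each.

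The 4 receptor genes examined had 28 regions, and 0 were in either list (upper bound of the 95% Wilson interval 12.1%). Ccr1 had 12 regions and Ccr3 had 12, while Ccr8 had 3 and Xcr1 had 1. Ccr1 encodes a receptor for Ccl3 and Ccl5, and Ccr3 one for Ccl5. No region of Xcr1 lay closer than 9.99 kb to the gene. Ccr8 had none in the gene, and its nearest was 1.06 kb away. With this number of regions a share like that of all regions, 5.61%, would not be told apart from 0.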

How the data were processed

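Splenic NK cells were profiled by ATAC-seq in 4 samples, 2 per IL-15 dose, grouped by the dose in their titles. Per the submitters' processing notes the build was mm10 and the tools included BWA, ArchR, MACS2 and HOMER 4.11.1, with no roles given. The tables deposited by the authors hold positions and no counts: 91266 regions with start, end and width, and the authors' lists of 3845 up and 1275 down regions, each identical to one of the 91266. Whether peaks were called per sample or pooled, the differential test and its threshold are not given in the sources used here. Depth is unknown, and edges and merging by the authors' caller set the number and width of regions. Replicates could not be compared, and the planned dose test was not made.

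Starts were 0-based and were raised by 1, so coordinates are 1-based mm10 (GRCm38). Regions were assigned to 21900 protein-coding genes of RefSeq GRCm38.p6 with pandas 2.3.3 and numpy 2.4.6. Start sites came from RefSeq promoter windows. Intervals are 95% Wilson intervals (scipy 1.17.1). Promoters were aligned locally with Biopython 1.88 (match 2, mismatch -3, gap opening -5, extension -2). Assignment and list matching were tested on simulated regions. Named regions were those listed and, per gene, the nearest to the start, the widest and the farthest. Members and gene lists were chosen with earlier results of these data known, and no test over regions was made. A few genes of the fixed lists are not reported here. Alternatives were other assignment rules, minimum widths, overlap rules and leaving out each gene.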

Additional observations from a re-analysis of the deposited data

How the results depend on the processing

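No paired analysis was possible because nothing in the files is measured per sample, so the shared replicate numbers 1 and 2 could not be used. Likewise, leaving out a replicate, other normalizations, filters on low values and stricter thresholds were not run. Assignment to the nearest start site was not run because start sites were matched for only 5 of the 7 genes.

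Of 31 alternatives, 27 stayed within 1.5 times the count or within the interval of the listed share. The 27 include the overlap rules, and a change from 3 to 2 up regions was counted as within the limit. The interval is wide (2.24 to 13.8%) and comes from the same regions. The number 27 therefore does not measure how stable the results are. The 70 regions became 24 with genes of any biotype, 28 within 10 kb of a member and 43 at a width of at least 400 bp. The 3 up regions became 0 within 10 kb. They were 2 within 50 kb and 2 with genes of any biotype, and 3 in the other 4 alternatives run. The down region remained 1 in all 7 alternatives run. The overlap rules could not have moved these counts, because every listed region has exactly the coordinates of one in the full list. With each gene left out in turn, the listed share of 5.71% lay between 3.45% without Ccl1 and 6.67% without Xcl1 or without Ccl5. In 5 alternatives chosen after seeing the data it was 12.5% with genes of any biotype, 3.57% within 10 kb, 5.08% within 50 kb, 6.90% at a width of at least 250 bp and 9.30% at a width of at least 400 bp. Of all regions of at least those widths, 7.11% and 7.39% were listed. Depth is unknown, so its effect on these values was not tested.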
